A study of Mus musculus with 4 samples.

Results

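Fatty acid oxidation genes encode the enzymes and carriers that activate fatty acids, bring them into mitochondria as carnitine esters and shorten them by beta-oxidation, together with the peroxisomal enzymes that shorten very long and branched chains. They were followed here by name, as 37 gene symbols of mitochondrial and peroxisomal beta-oxidation. On the array, 36 of the 37 had a probe set annotated with that symbol alone, 66 probe sets in all, out of 34945 probe sets with 1 symbol. Cpt1b, the carnitine palmitoyltransferase of muscle and brown fat, was represented only by a probe set that also names other genes, and it is not analysed here.

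The study measured total RNA of immortalized mouse brown preadipocytes, the dividing precursors of brown fat, on Affymetrix arrays, to see how loss of the histone H3 lysine 9 methyltransferase G9a alters expression. The Cre group held 2 arrays of cells labelled as G9a knockout, and the vector group held 2 arrays of cells labelled as wild type. Both groups came from G9a f/f cells (floxed G9a alleles) of a mixed C57/BL6-129 background, grown in serum-containing medium and not labelled as differentiated. Nothing in the labels tells how Cre was delivered, how many clones were used or whether a group's arrays are separate cultures. The p-values therefore cannot be taken to measure a spread between cultures or clones. They rest on the spread between these arrays, which limma draws for each probe set toward that of probe sets of like intensity. Arrays are called Cre 1, Cre 2, vector 1 and vector 2 after the replicate number in their titles.

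Beta-oxidation is a repeated cycle of an acyl-CoA dehydrogenase, a hydratase, a second dehydrogenase and a thiolase, which releases acetyl-CoA. Electrons of the first step pass through the electron transfer flavoprotein to the respiratory chain. In brown fat the pathway fuels heat production, its genes are targets of PPAR nuclear receptors and the coactivator PGC-1alpha, and their transcripts rise as preadipocytes mature.

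Ehmt2, the gene of G9a, read 949 and 941 units of normalized signal in the Cre arrays, against 2722 and 2646 in the vector arrays (difference -1.49, limma adjusted p = 0.227, and 0.000281 with the replicate block described below). A dimmer tested probe set of Ehmt2 read 35.5 and 77.2 units in the Cre arrays, against 139 and 197 in the vector arrays. Its difference was -1.39 (limma adjusted p = 0.779, and 0.0170 with the block). Which exons Cre removes is not labelled, and the probe sets may lie outside them. Array medians of the deposited signal were 78 and 52.5 in Cre 1 and Cre 2, against 67.2 and 50.6 in vector 1 and vector 2, before the arrays were brought to a common distribution. Of the preadipocyte and mesenchymal markers, 7 of 7 on the array lay above the level filter. Their summed signal was 15052 and 17107 in the Cre arrays, against 17453 and 14635 in the vector arrays. Both Cre arrays lay above both vector arrays for 1 of the 7, beside 17.5% of all genes, and below both for 3, beside 13.6%. Of mature adipocyte markers, Adipoq, Cidec and Lep lay below the filter, as did the brown adipocyte markers Ucp1, Cidea and Elovl3. Ucp1, the uncoupling protein of brown fat, read 7.55 and 26.0 units in the Cre arrays and 8.53 and 7.45 in the vector arrays. Dio2, the brown fat deiodinase that activates thyroid hormone, lay above the filter and read 137 and 62.1 units in the Cre arrays, against 58.4 and 53.4 in the vector arrays (limma adjusted p = 0.999, and 0.379 with the block). The brown adipocyte sum was 196 and 138 units in the Cre arrays, against 121 and 91.2 in the vector arrays, and the part of this difference in the values below was not tested. The mature adipocyte sum was 132 and 93.5 units in the Cre arrays, against 118 and 88.7 in the vector arrays. The skeletal muscle sum, to which Acta1 contributed most, was 493 and 484 units in the Cre arrays, against 222 and 255 in the vector arrays. The 2 skeletal muscle markers tested both lay higher in both Cre arrays than in both vector arrays, beside 17.5% of all genes. Their median difference was 1.09 within number 1 and 0.66 within number 2. With the block 1 of the 2 rose at a limma adjusted p under 0.05, beside 3.25% of all genes. Without it 0 rose, beside 0%. The part of muscle-type transcripts in the values below was not tested, and the skeletal muscle markers Myh1, Myh4, Mb and Pygm were below the filter. The macrophage sum was 407 and 453 units in the Cre arrays, against 275 and 426 in the vector arrays. The endothelial sum was 205 and 123 units in Cre, against 122 and 54.2 in vector. For hepatocyte markers it was 86.9 and 37.6 units in Cre, against 55.7 and 71.65 in vector. All endothelial and hepatocyte markers were below the filter.

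None of the oxidation genes passed the test between the groups, in either model. Values are log2(normalized signal + 16), and probe sets at or above the 50th percentile of mean level, about 60.6 units, were tested. Each gene is represented by its brightest probe set. By this filter 33 of the 36 genes were tested, and the 3 that were not (Acox2, Acox3 and Ehhadh) are all peroxisomal. At a limma adjusted p under 0.05 over all probe sets, 0 members rose and 0 fell, beside 0% of all 11079 genes tested in each direction. With the replicate number as a block, 0 members rose and 0 fell, beside 3.25% of all genes that rose and 0.984% that fell. Members with an unadjusted p under 0.05 numbered 0 without the block, beside 5.07% of all genes. With the block 5 were higher in Cre (Acaa2, Decr1, Hadhb, Acat1 and Acadl), beside 10.8% of all genes, and 0 were lower, beside 7.53%. In whole-cell RNA, a change in the number of cells that express a gene and a change in RNA per cell cannot be told apart.

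Cre minus vector ranged from -0.39 (Acadsb) to 0.51 (Acad10) on the log2 scale over the 33 genes. Acadsb and Acad10 were each tested only by a probe set that may match several transcripts. The members' median was 0.05, against a median of 0.01 over all genes tested. Within number 1 the members' median was 0.12, and within number 2 it was -0.001. With the main pseudocount no tested member differed by 1.5-fold or more (0 of 33), beside 8.73% of all genes. That count of members depended on the pseudocount, the constant added to the signal before taking logs. With a pseudocount of 1, Acad10 differed by 0.605, which is over 1.5-fold. The members' median standard error (SE) was 0.24 without the block and 0.16 with it, against 0.26 and 0.17 over all genes. With the block, the unadjusted 95% interval lay inside a 2-fold change in either direction for 32 of the 33 genes, the exception being Acad10, whose upper bound was 1.12. Without the block this held for 27.

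**Figure D1:**
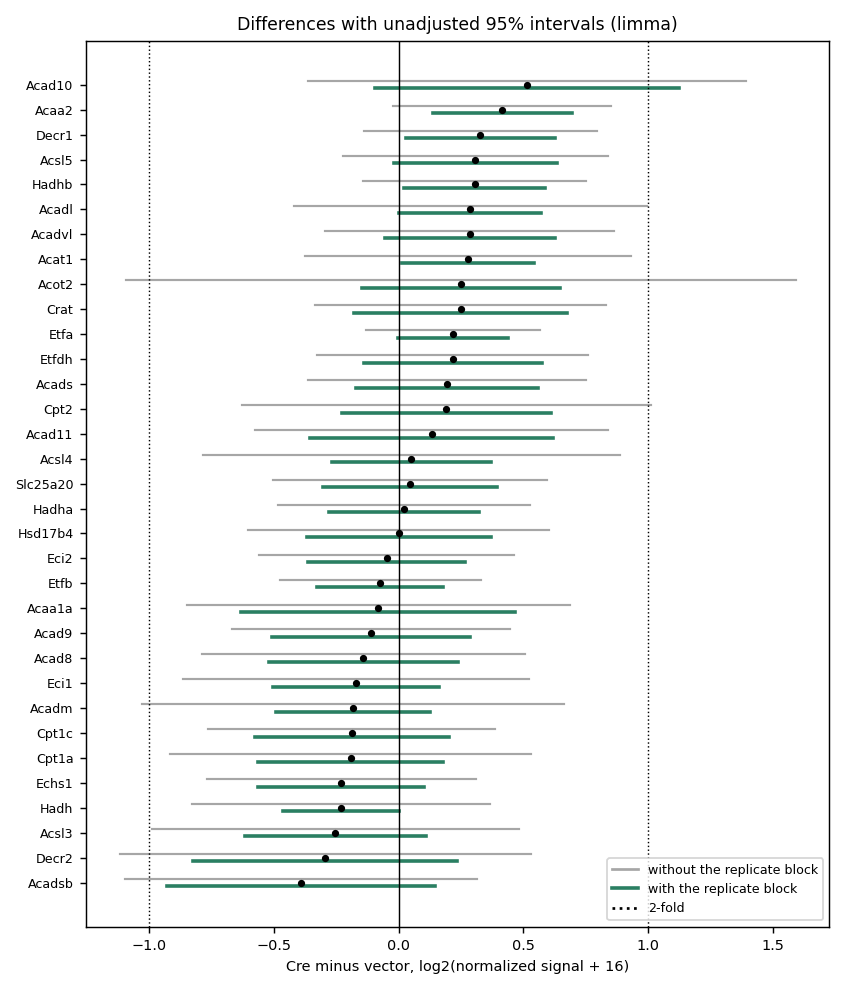
Cre minus vector on the log2(normalized signal + 16) scale for the 33 tested genes, ordered by size. Black points are the differences, grey lines the unadjusted 95% intervals without the replicate block, green lines those with it, and dotted lines mark 2-fold. Most intervals span 0, and with the block only that of Acad10 passes a dotted line.

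Direction was mixed. Both Cre arrays lay above both vector arrays for 9 members, beside 17.5% of all genes, and below both for 3, beside 13.6%. The 9 were Acsl5, Crat, Acadvl, Acads, Hadhb, Acaa2, Decr1, Etfa and Etfdh, and the 3 were Cpt1c, Acad9 and Echs1. Within both replicate numbers 12 members were higher in Cre, beside 32.8% of all genes, 10 were lower, beside 30.2%, and the other 11 had opposite signs. The split without overlap depended on the scaling: with the deposited scaling 8 members lay higher, beside 16.2% of all genes, and 1 lower, beside 13.3%. With the arrays centred on their medians 0 lay higher, beside 11.2% of all genes, and 4 lower, beside 12.9%. Median centring moved the median of all genes by -0.10, and relative to that median the members' median was -0.01.

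**Figure D2:**
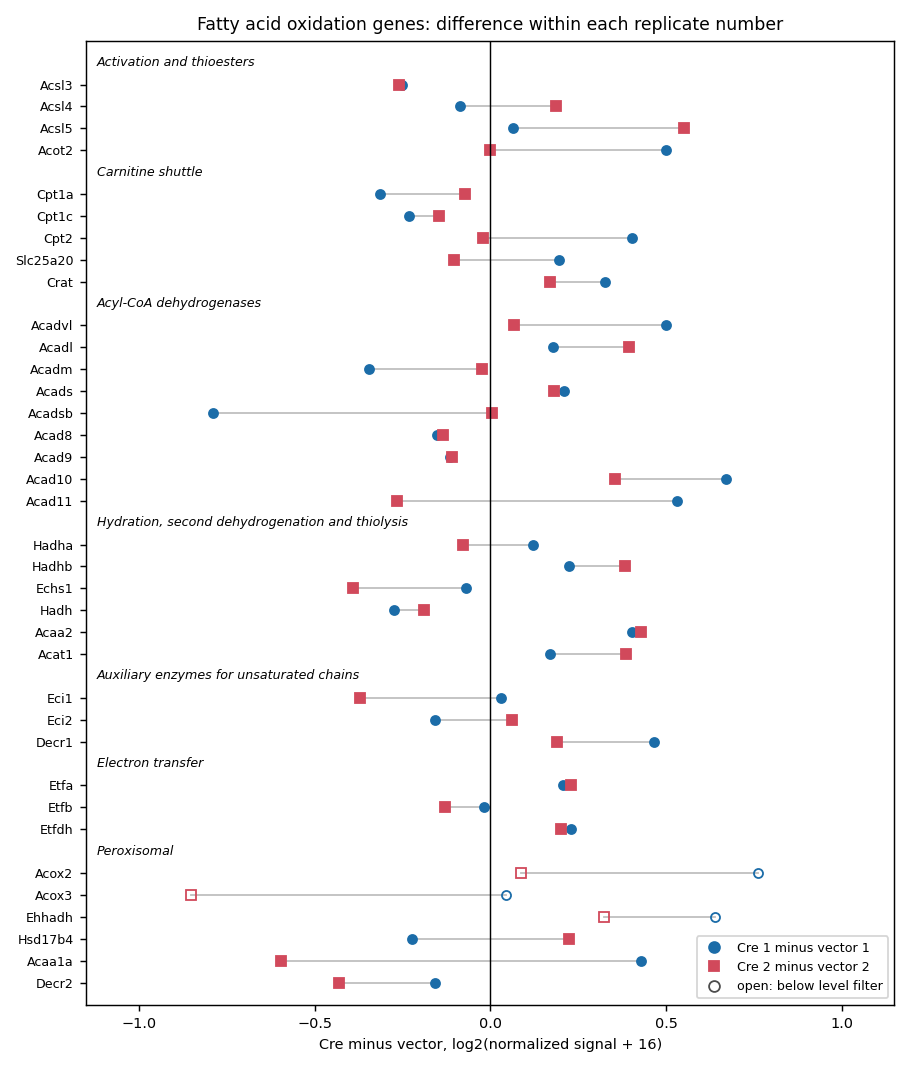
Cre minus vector, log2(normalized signal + 16), within number 1 (blue circles) and within number 2 (red squares) for the 36 genes, grouped by role. Open symbols are genes below the level filter. Acaa2, Etfa, Etfdh and Acads have both points close together above 0, while Acaa1a, Acad11 and Hsd17b4 have points on opposite sides.

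Replicate numbers also set the arrays apart. For 16 of the 33 members the arrays of one number lay wholly above those of the other, beside 53.5% of all genes, with number 1 higher in 10 and number 2 higher in 6. The gap between the numbers was larger than that between the groups for 20 of the 33 members, beside 61.6% of all genes. Over the members the median gap between the numbers was 0.19 and the median size of the difference between the groups was 0.22, whereas over all genes these medians were 0.26 and 0.18. Transcripts of the sex-linked genes Xist and Eif2s3y also parted the numbers, and their part in these gaps was not tested.

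**Figure D3:**
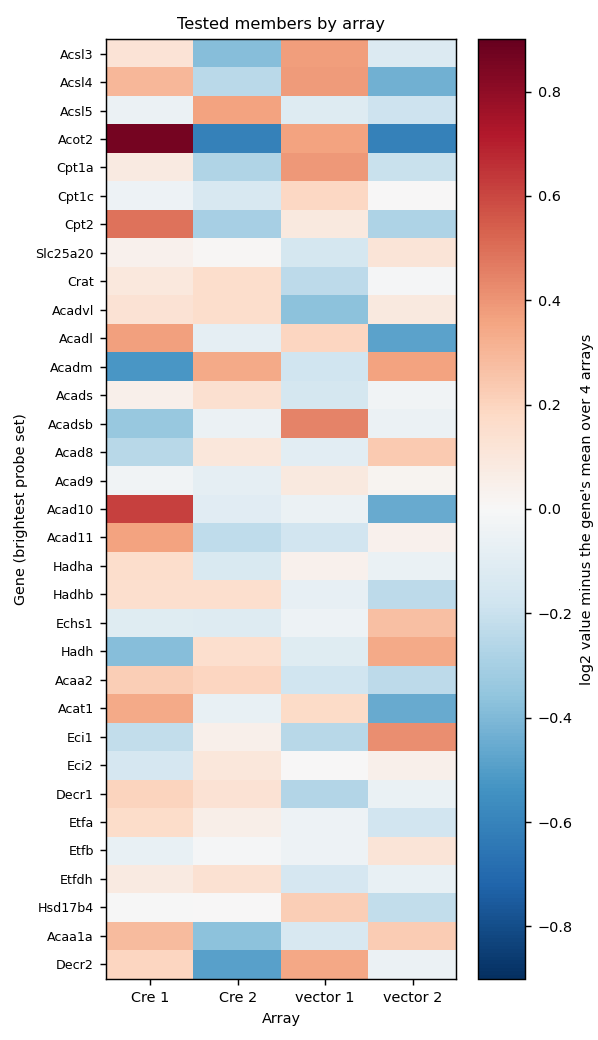
Log2 value of each tested gene in each array, minus the gene's mean over the 4 arrays (red above, blue below). Columns are Cre 1, Cre 2, vector 1 and vector 2. In rows such as Acot2, Acsl4, Acadm and Acat1 the colours follow the replicate number, and in Acaa2 and Hadhb they follow the group.

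Promoter sequence, which the list did not use, was searched for short motifs. RefSeq promoter windows of GRCm38.p6, each 300 bases long with 250 before the first base of the gene and 50 from it on, were at hand for 30 of the 37 members (31 windows). The GC box GGGCGG, on either strand, was in 74.2% of the members' windows, against 35.7% of all 32851 windows. The median GC content was 60.3% in the members' windows and 52.7% in all. For the ratio of observed to expected CpG the medians were 0.588 and 0.384. All windows include those of genes below the level filter, and shares over tested genes alone were not computed. CCAAT, on either strand, was in 48.4% of the members' windows against 37.4% of all. The nuclear receptor core motif AGGTCA, on either strand, was in 16.1% (Acadm, Acadvl, Cpt1a, Cpt1c and Echs1) of the members' windows against 16.3% of all. AGGTCANAGGTCA, the direct repeat with 1 base between that PPAR and RXR bind, was in 0 members' windows and in 0.0396% of all. An exact match is so rare that this 0 cannot show whether members lack such sites. The search for AGGTCA also finds each copy inside that repeat. A match is a run of letters and not a shown site.

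The windows of 3 genes are printed because they bear on pairs described below. Hadhb lies head to head with Hadha, whose first base is 273 bases away on the other strand. Etfa and Etfdh encode partners in electron transfer, and they were picked with their nearly equal differences known. Etfb, the other flavoprotein subunit, differed by -0.07 and is not printed. Whether these sequences bear on the differences was not tested. Capitals mark GC boxes, of which the windows hold 4 (Hadhb), 0 (Etfa) and 1 (Etfdh).
Hadhb, chr5:30155003-30155302, plus strand: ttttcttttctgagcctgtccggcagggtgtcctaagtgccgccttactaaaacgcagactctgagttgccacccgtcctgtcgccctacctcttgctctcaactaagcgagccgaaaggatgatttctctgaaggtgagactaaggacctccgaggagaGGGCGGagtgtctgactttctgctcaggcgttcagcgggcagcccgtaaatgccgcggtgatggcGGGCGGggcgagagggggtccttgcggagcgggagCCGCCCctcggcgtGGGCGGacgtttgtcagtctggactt
Etfa, chr9:55512194-55512493, minus strand: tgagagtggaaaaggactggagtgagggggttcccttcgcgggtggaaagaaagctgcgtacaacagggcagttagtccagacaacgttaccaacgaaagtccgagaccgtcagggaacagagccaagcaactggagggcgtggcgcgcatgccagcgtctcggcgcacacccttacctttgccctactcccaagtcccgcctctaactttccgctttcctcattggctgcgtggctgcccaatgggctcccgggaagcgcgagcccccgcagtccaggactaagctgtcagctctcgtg
Etfdh, chr3:79628718-79629017, minus strand: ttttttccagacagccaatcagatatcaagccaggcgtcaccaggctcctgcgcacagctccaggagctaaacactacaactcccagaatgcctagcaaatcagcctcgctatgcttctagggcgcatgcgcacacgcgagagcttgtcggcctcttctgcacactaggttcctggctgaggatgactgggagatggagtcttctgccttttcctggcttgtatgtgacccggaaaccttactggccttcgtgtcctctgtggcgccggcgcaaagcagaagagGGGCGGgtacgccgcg

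Fatty acid activation came first. Acyl-CoA synthetases of the Acsl family attach coenzyme A to long-chain fatty acids. Acsl5 read 2322 and 3104 units in the Cre arrays and 2219 and 2115 in the vector arrays. Both Cre arrays were above both vector arrays, though Cre 1 only slightly, and the difference was 0.31 ± 0.22 (SE, n = 2 against 2; limma adjusted p = 0.999, and 0.348 with the block). Without Cre 2 the difference of Acsl5 was 0.099, and without Cre 1 it was 0.52. Acsl3 read 920 and 642 units in Cre and 1097 and 772 in vector, with differences of -0.25 within number 1 and -0.26 within number 2. Its groups overlapped because number 1 exceeded number 2 by about the same 0.51 in Cre and 0.499 in vector, and leaving out 1 array gave -0.51 (without Cre 1) to -0.00081 (without Cre 2). Acsl4, a synthetase that favours arachidonate, had differences of -0.09 and 0.19 within the numbers. Its other 2 tested probe sets read lower in Cre on average.

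Acot2, a mitochondrial thioesterase that splits acyl-CoA back to free fatty acid, varied mainly with the replicate number. Its probe set read 1618 and 574 units in Cre 1 and Cre 2, against 1139 and 574 in vector 1 and vector 2. Number 1 exceeded number 2 by 1.47 in Cre and 0.97 in vector on the log2 scale. The Cre minus vector difference was 0.50 within number 1 and -0.001 within number 2.

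The carnitine shuttle carries acyl groups across the inner membrane. Cpt1a, the carnitine palmitoyltransferase at the controlled step of entry, read 896 and 699 units in the Cre arrays against 1118 and 736 in the vector arrays. In this brightest probe set the Cre array was lower within each number, by differences of -0.31 and -0.07, and the groups overlapped. A second tested probe set of Cpt1a differed by 0.12 and -0.03, and another below the filter by 0.58 and 0.37. Cpt1c, the form known from brain, read 525 and 488 units in Cre and 619 and 542 in vector. Here both Cre arrays lay below both vector arrays, with a difference of -0.19 ± 0.24 (SE, n = 2 against 2; limma adjusted p = 0.999, and 0.663 with the block).

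Cpt2, which returns the acyl group to coenzyme A inside the mitochondrion, differed by 0.40 within number 1 and by -0.02 within number 2. Its dimmer tested probe set differed by -0.43 and 0.07. Slc25a20, the carrier that exchanges acylcarnitine for carnitine, read 1301 and 1276 units in the Cre arrays and 1134 and 1373 in the vector arrays. Its Cre arrays lay between the vector arrays, and the mean difference was 0.05 ± 0.23 (SE, n = 2 against 2; limma adjusted p = 0.999, and 0.923 with the block). A dimmer tested probe set of Slc25a20 differed by -0.28 and -0.12 within the numbers.

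Crat, the carnitine acetyltransferase that buffers acetyl-CoA, read 331 and 348 units in the Cre arrays, against 261 and 307 in the vector arrays, without overlap. The difference was 0.25 ± 0.24 (SE, n = 2 against 2; limma adjusted p = 0.999, and 0.584 with the block). A second tested probe set differed by 1.52 within number 1 and by -0.48 within number 2. The third lay below the filter and read 59.9 and 63.1 units in Cre, against 12.2 and 16.4 in vector. The 3 probe sets of this gene thus differ from one another in size, and the second also in sign between the numbers.

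Acyl-CoA dehydrogenases, sorted by the chain length they accept, take the first oxidation step. Acadl, the long-chain enzyme, read 3494 and 2549 units in the Cre arrays against 3089 and 1933 in the vector arrays. Within each number the Cre array was higher, by 0.18 and 0.40, and number 1 lay above number 2 in both groups. The mean difference was 0.29 ± 0.29 without the block and 0.29 ± 0.13 with it (SE, n = 2 against 2; limma adjusted p = 0.999 and 0.311). An Acadl probe set below the filter, which read at most 21.75 units on any array, had differences of -0.36 and -0.91, opposite in sign. Acadvl, the very-long-chain enzyme, read 1919 and 1955 units in Cre and 1351 and 1864 in vector. Vector 1 stood apart below the other 3 arrays.

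Acads, the short-chain enzyme, read 818 and 879 units in the Cre arrays against 706 and 773 in the vector arrays, without overlap. Its differences within the numbers were 0.21 and 0.18. Acadm, the medium-chain enzyme, followed the replicate number, with 1550 and 2838 units in Cre and 1972 and 2884 in vector. Its difference was -0.34 within number 1 and -0.02 within number 2.

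Among the remaining dehydrogenases, Acad10 had the largest positive difference of the tested members. It read 131 and 73.3 units in the Cre arrays and 76.2 and 53.9 in the vector arrays, a difference of 0.51 ± 0.36 (SE, n = 2 against 2; limma adjusted p = 0.999, and 0.402 with the block). Cre 2 lay below vector 1, so the groups overlapped, and leaving out 1 array gave 0.15 (without Cre 1) to 0.87 (without Cre 2). A dim second probe set, below the filter, differed by 1.38 within number 1 and by -1.31 within number 2. Acad11 had differences of 0.53 and -0.27 within the numbers.

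Acadsb, which serves isoleucine breakdown, had the largest negative difference. Its probe set read 151 and 188 units in Cre and 272 and 187 in vector, so that vector 1 alone stood above the rest. The difference was -0.79 within number 1 and 0.004 within number 2, and the mean was -0.39 ± 0.29 (SE, n = 2 against 2; limma adjusted p = 0.999, and 0.478 with the block). Acad8, the isobutyryl-CoA dehydrogenase of valine breakdown, differed by -0.15 and -0.13 within the numbers. Acad9, which also helps to assemble respiratory complex I, read 449 and 431 units in Cre and 487 and 467 in vector, lower in Cre without overlap by a difference of -0.11 in each number. Its second tested probe set differed by -0.78 and -0.36.

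Acaa2 had the smallest limma adjusted p of the tested members with the block. It encodes the mitochondrial 3-ketoacyl-CoA thiolase, which performs the last step of the cycle on medium and long chains. Its brightest probe set read 2964 and 2902 units in the Cre arrays, against 2237 and 2154 in the vector arrays. The groups did not overlap, and replicate numbers differed by 0.03 in Cre and 0.05 in vector on the log2 scale. The difference was 1.33-fold, 0.42 ± 0.18 (SE, n = 2 against 2; limma adjusted p = 0.999), with 0.40 and 0.43 within the numbers. With the block the SE was 0.13 and the limma adjusted p was 0.122. The other 2 probe sets each differed by 0.43, with adjusted p-values of 0.147 and 0.126 in that model.

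Acat1, the mitochondrial acetoacetyl-CoA thiolase, had 3 probe sets with mean differences of 0.26, 0.28 and 0.30, but the dimmest of them differed by -0.22 within number 1 and by 0.74 within number 2. Its brightest read 4365 and 3278 units in the Cre arrays and 3879 and 2507 in the vector arrays. The groups overlapped because number 1 lay above number 2 in both, by 0.41 and 0.63.

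Hadha and Hadhb encode the alpha and beta subunits of the mitochondrial trifunctional protein, which handles long chains, and they are the head-to-head pair, most of whose intervening sequence is printed above as the Hadhb window. Hadhb read 2887 and 2882 units in the Cre arrays, against 2469 and 2204 in the vector arrays. The Cre arrays nearly coincided and lay above both vector arrays, with a difference of 0.30 ± 0.18 (SE, n = 2 against 2; limma adjusted p = 0.999, and 0.275 with the block). Its other 2 probe sets differed by 0.34 and 0.43. Hadha read 2381 and 1942 units in Cre and 2189 and 2052 in vector, with differences of 0.12 and -0.08 within the numbers. The difference between these neighbours was not tested.

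Echs1, the short-chain enoyl-CoA hydratase, read 1481 and 1474 units in the Cre arrays, against 1555 and 1939 in the vector arrays. Both Cre arrays were lower, and vector 2 stood highest. The difference was -0.23 ± 0.22 (SE, n = 2 against 2; limma adjusted p = 0.999, and 0.504 with the block). Hadh, the short-chain 3-hydroxyacyl-CoA dehydrogenase, read 3605 and 5214 units in Cre and 4362 and 5949 in vector, with differences of -0.27 and -0.19 within the numbers. Its second bright probe set read 1807 and 1945 units in Cre and 1718 and 1719 in vector, without overlap. That probe set differed by 0.07 and 0.18 within the numbers, so the sign for this gene depended on the probe set. The brightest one, whose groups overlapped, may match several transcripts.

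**Figure D4:**
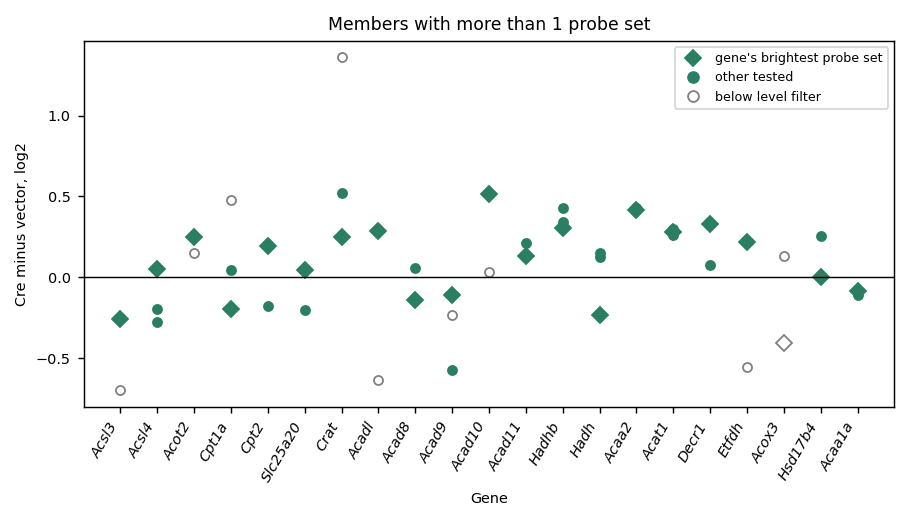
Cre minus vector on the log2 scale for each probe set of the 21 members with more than 1 probe set. Diamonds are each gene's brightest probe set, filled circles other tested probe sets, and open symbols probe sets below the level filter. The 3 probe sets of Acaa2 coincide near 0.43, those of Acat1 lie between 0.26 and 0.30, and those of Hadh and Cpt2 lie on both sides of 0.

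Of the 16 members with at least 2 tested probe sets, 10 had all of them on the same side of 0. The enzymes that handle double bonds gave the same mixed picture. Decr1, the mitochondrial 2,4-dienoyl-CoA reductase, read 2777 and 2646 units in the Cre arrays, against 2007 and 2317 in the vector arrays. The groups did not overlap, and the difference was 0.33 ± 0.19 (SE, n = 2 against 2; limma adjusted p = 0.999, and 0.265 with the block). A dimmer tested probe set of Decr1 overlapped, with differences of 0.31 and -0.17 within the numbers, and the mean over both probe sets was 0.20. Eci1, an enoyl-CoA isomerase, read 1564 and 1884 units in Cre and 1532 and 2442 in vector. Its difference was 0.03 within number 1 and -0.37 within number 2, where vector 2 stood above the other arrays. Eci2, a second isomerase, differed by -0.16 and 0.06.

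Of the electron transfer genes, 2 of 3 were higher in both Cre arrays than in both vector arrays, beside 17.5% of all genes. Etfa, the alpha subunit of the electron transfer flavoprotein, read 6102 and 5648 units in the Cre arrays, against 5281 and 4817 in the vector arrays. The groups did not overlap, and the difference was 0.22 ± 0.14 (SE, n = 2 against 2; limma adjusted p = 0.999, and 0.317 with the block). Etfdh, the dehydrogenase that passes these electrons to ubiquinone, read 969 and 1006 units in Cre and 823 and 873 in vector. Its differences of 0.23 and 0.20 within the numbers sat beside 0.21 and 0.23 for Etfa. Etfb, the beta subunit, read 3492 and 3630 units in Cre and 3538 and 3969 in vector, with overlapping groups and a difference of -0.07 ± 0.17 (SE, n = 2 against 2; limma adjusted p = 0.999, and 0.811 with the block).

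Of the peroxisomal enzymes 3 were tested. Hsd17b4, the D-bifunctional protein that hydrates and dehydrogenates peroxisomal intermediates, read 1209 and 1218 units in the Cre arrays and 1415 and 1041 in the vector arrays. The Cre arrays fell between the vector arrays, with differences of -0.22 and 0.22 within the numbers. A second tested probe set of Hsd17b4 differed by 0.007 and 0.50. Decr2, the peroxisomal dienoyl-CoA reductase, read 149 and 87.3 units in Cre and 169 and 123 in vector, a difference of -0.29 ± 0.34 (SE, n = 2 against 2; limma adjusted p = 0.999, and 0.604 with the block). Acaa1a, a peroxisomal thiolase, had opposite differences of 0.43 and -0.59, and it resembles Acaa1b closely enough that 2 other probe sets name both. Below the filter, Ehhadh, the L-bifunctional enzyme, read 18.6 and 16.4 units in Cre and 6.25 and 9.88 in vector. The branched-chain oxidases Acox2 and Acox3 read at most 50.2 units on any array in their brightest probe sets.

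Of 8 related lists, on regulators, uptake and release of fatty acids, ketone bodies, the citrate cycle, the respiratory chain, peroxisome assembly, branched-chain catabolism and other thioesterases, 0 genes passed without the block, and with the block 1 rose and 2 fell. Other genes of these lists, such as Slc27a3 at -0.85 and Ppargc1b at -0.82, had differences of like size without passing. The shares of all genes with the block are those given above. The one that rose was Pdk4, the pyruvate dehydrogenase kinase that restrains entry of glucose carbon into the citrate cycle and a known PPAR target. It read 511 and 540 units in the Cre arrays, against 248 and 264 in the vector arrays. The difference was 1.99-fold, with 0.999 and 0.99 within the numbers (SE 0.19 and limma adjusted p = 0.0162 with the block, 0.63 without it). With the block but no level filter, the limma adjusted p of Pdk4 was 0.125.

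Aacs, the cytosolic acetoacetyl-CoA synthetase that turns ketone bodies toward lipid synthesis, read 849 and 945 units in the Cre arrays, against 1693 and 1510 in the vector arrays. The groups did not overlap, and its differences were -0.98 and -0.67 (limma adjusted p = 0.0188 with the block, 0.772 without it, and 0.119 with the block and no level filter). Angptl4, a secreted inhibitor of lipoprotein lipase and a PPAR target, read 74.7 and 363 units in Cre and 166 and 664 in vector. Its groups overlapped across the numbers, and within them the differences were -1.001 and -0.84 (limma adjusted p = 0.0353 with the block, 0.999 without it, and 0.208 with the block and no level filter). Leaving out Cre 1 or vector 2 turned the unpaired difference of Angptl4 to 0.11 or 0.03.

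**Figure D5:**
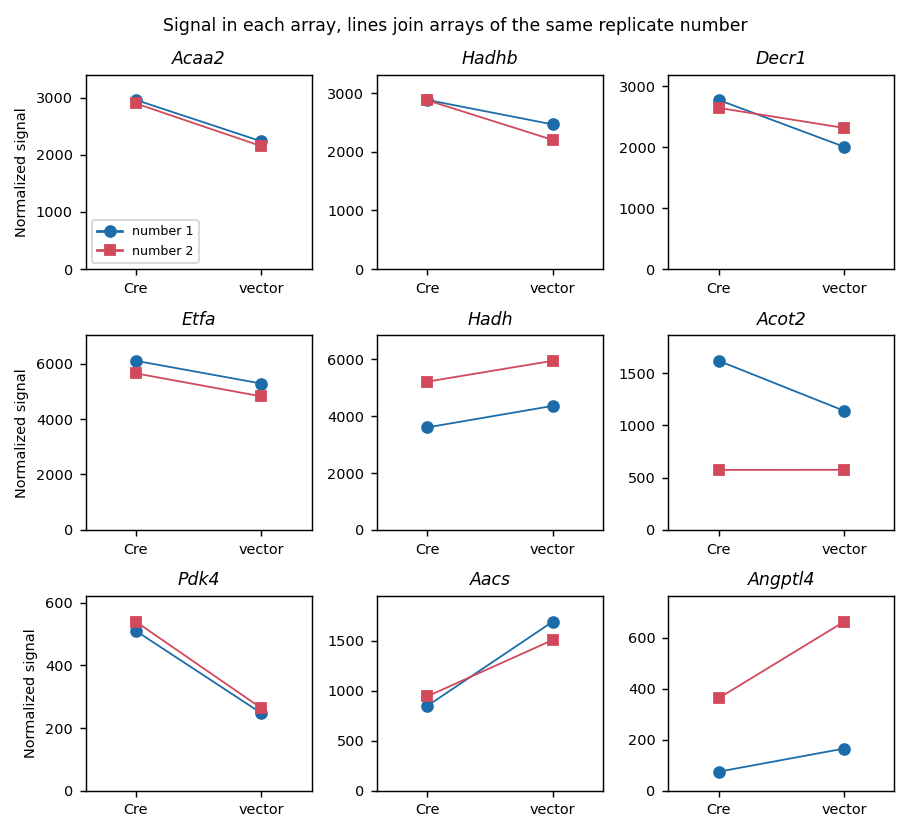
Normalized signal (linear axis from 0) in Cre and vector arrays for 6 members (Acaa2, Hadhb, Decr1, Etfa, Hadh, Acot2) and 3 related genes (Pdk4, Aacs, Angptl4). Lines join arrays of the same replicate number, blue circles for number 1 and red squares for number 2. The lines of Acaa2 and Pdk4 nearly coincide, while those of Acot2 and Angptl4 lie far apart.

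The list medians ranged from -0.13 (ketone bodies, 3 tested genes) to 0.12 (branched-chain and propionyl-CoA catabolism). Other thioesterases had 0.06 over 7, with 5 positive and 2 negative. Genes of the citrate cycle and pyruvate entry had a median difference of 0.01 over 22 tested genes, 12 positive and 10 negative. The respiratory chain and ATP synthase list had 0.02 over 20, with 11 positive and 9 negative. Peroxisome assembly and transport had 0.07 over 18, with 12 positive and 6 negative. Pex5 of this list, the gene of the import receptor, differed by -0.54 and -0.65 within the numbers. Branched-chain and propionyl-CoA catabolism had 0.12 over 15, with 11 positive and 4 negative, and medians of 0.23 and 0.19 within the numbers. Ivd of this list, the isovaleryl-CoA dehydrogenase, differed by 0.45 and 0.91. Uptake and release genes had 0.07 over 13, among them Plin2, the lipid droplet coat protein, with 7201 and 9744 units in Cre and 6454 and 6729 in vector.

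Among regulators the median was 0.001 over 12 tested genes. Ppargc1b, a coactivator of mitochondrial genes, differed by -1.25 and -0.39 within the numbers, and Pprc1, a member of the same family, by -0.52 and -0.25. Ppard, the PPAR subtype with a wide tissue range, differed by 0.14 and 0.31. Ppara and Ppargc1a, the receptor and coactivator best known for driving fatty acid oxidation, lay below the level filter. Ppara read 23.1 and 7.58 units in Cre and 28.3 and 29.5 in vector, and Ppargc1a read 60.5 and 37.0 in Cre and 44.8 and 37.3 in vector.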

How the data were processed

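Signal intensities on a linear scale were deposited by the authors, 1 per probe set and array, made with MAS5 per the submitters' processing notes. Its version and settings were not given in the sources used. After trimming 2% from each end, the deposited values of every array averaged 500.003, so arrays had been scaled on their mean. The array medians still spanned 0.62 log2 units, and the intensities were quantile normalized here. The table held 45101 probe sets, and 64 controls were left out. Values were log2(signal + 16), so a fold change of a dim gene is understated. The 22519 probe sets at or above the 50th percentile of mean level were fitted with limma 3.58.1 (R 4.3.3, lmFit, eBayes with intensity trend), and p-values were adjusted by Benjamini-Hochberg over them all. The scripts were tested on simulated data. The smallest p of an exact two-sided permutation test with 2 arrays a group is 0.333.

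The replicate numbers pair the arrays: same-numbered arrays deviated together (correlation 0.60 over probe sets), and Xist read 10031 and 68.1 units in Cre 1 and Cre 2 and 11634 and 51.5 in vector 1 and vector 2, so the cells of the numbers differ in origin. The model without the block remained the main one. The members and lists were chosen with earlier results of these data known. Full values are given for members past the threshold, and in each role for the brightest gene and the genes with the smallest p in each direction. Others are named to account for the list. Of related lists, up to 3 genes with the smallest p were eligible. Hadhb (given in full beside its partner Hadha), Ppard, Ppara, Ppargc1a, Dio2 and the brown markers below the filter were named outside this rule.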

Additional observations from a re-analysis of the deposited data

Results flagged for a closer look

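One probe set of Crat, the carnitine acetyltransferase gene, lay below the level filter and so outside the test, but its signal in both Cre arrays was above that in the vector arrays. It differed by 1.36 on the log2 scale, with 1.43 and 1.29 within the numbers. In a model of all probe sets without the filter and with the replicate block, a setting chosen after seeing the data, its limma adjusted p was 0.228. Without the block the limma adjusted p was 0.796. The 2 brighter probe sets of the gene differed by 0.25 and 0.52. The 0.52 was the mean of opposite differences, 1.52 within number 1 and -0.48 within number 2.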

How the results depend on the processing

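The count of 0 members called held under each alternative run for it, among them (chosen after seeing the data) leaving out probe sets that may match several transcripts. Over all probe sets tested, 2 were called, against 708 with the replicate block, 84 with the replicate block and no level filter (added after seeing the data), 16 with median centring, 1 with a pseudocount of 1, 1 with the 75th percentile filter, 0 with no level filter and 0 without the intensity trend. Leaving out 1 array gave 7 to 28. The members' median of 0.05 was -0.11 with median centring, where the median of all genes was -0.09, 0.0029 as deposited, 0.0139 as a mean over probe sets and 0.12 over the 29 genes left without probe sets that may match several transcripts. Leaving out 1 array gave 0.0092 to 0.14. Of the 18 members given in full, 11 kept their sign in each alternative run for them. Crat, Acad10, Acadsb and Decr2 had no value under the 75th percentile filter, and Hadhb was added after seeing the data. Leaving out 1 array moved 14 of the 18 by over 1.5 times, the exceptions being Acaa2 (0.39 to 0.44), Decr1 (0.23 to 0.43), Etfa (0.15 to 0.28) and Hadhb (0.22 to 0.39). Among the 14, without a change of sign, were Crat (0.14 to 0.36), Cpt1c (-0.28 to -0.096), Acadsb (-0.64 to -0.14), Echs1 (-0.39 to -0.073), and Acsl3, Acsl5 and Acad10 as given above. Hsd17b4, at 0.0002, was -0.00042 with a pseudocount of 64, -0.0355 as deposited and -0.14 with median centring. Slc25a20 was -0.0033 as deposited, -0.11 with median centring and -0.0781 as a mean over probe sets. Hadh was 0.0139 as a mean over probe sets. Leaving out 1 array unbalances the numbers, and it gave -0.50 to 0.0335 for Hadh, -0.63 to 0.045 for Decr2, -0.0491 to 0.62 for Acadl, -0.51 to 0.16 for Eci1, -0.16 to 0.0092 for Etfb, -0.22 to 0.22 for Hsd17b4 and -0.0909 to 0.18 for Slc25a20. Those runs were without the block, so each shift follows by arithmetic from the gap between the numbers in the group that lost an array. Within the numbers, the differences of Hadh, Acadl, Decr2 and Etfb each had the same sign. Those of Eci1, Hsd17b4 and Slc25a20 had opposite signs. The number of arrays limits precision, and the cause of the shifts under the other alternatives was not tested.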
